A study of Drosophila melanogaster with 5 samples.

Results

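The genes described here encode the trypsins and the Jonah proteases, digestive enzymes of the Drosophila midgut. Their FlyBase symbols set the membership. The 16 Jonah genes have a symbol that begins with Jon and a digit, the 11 trypsin genes carry the name of a Greek letter followed by Try, and together they are 27 of the 17807 genes in the count table. RNA was sequenced from hemolymph, the insect blood, of larvae aged 96 to 102 h, with 20 larvae in each pool and 1 library per pool. In 3 libraries, called abd-A here, the larvae were Cg-Gal4>UAS-abd-A and overexpressed the Hox gene abd-A under Cg-Gal4, a driver active in hemocytes and fat body. The 2 libraries of Cg-Gal4>CS larvae are the control, in which the same driver was crossed to the wild type Canton-S and no UAS transgene was present. The labels give Canton-S as the strain of both groups and call the libraries replicates without naming separate crosses, so that p-values measure the spread between these pools.

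Trypsins cleave proteins after lysine or arginine, and the Jonah proteases belong to the same family of chymotrypsin-like serine proteases. Both are made as inactive precursors by enterocytes, the absorptive cells of the midgut, and are secreted into the gut lumen, where they digest dietary protein. They are known as gut genes and are not markers of plasmatocytes, crystal cells or lamellocytes, the blood cells of the larva. The number and the capital letter after it in a Jonah symbol give the chromosome band of the gene, so that genes that share both are neighbours.

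Total counts on genes were 4736033, 3848911 and 4959111 in abd-A replicates 1, 2 and 3, and 1252969 and 2567624 in control replicates 1 and 2. The gene abd-A itself was counted 620, 474 and 638 times with the transgene, against 0 and 21 counts in the controls. Of 13 hemocyte genes listed as a check of the tissue, all had counts in these libraries, and their summed level was 18665 to 22342 CPM (counts scaled to library depth with TMM factors) in the abd-A libraries and 42064 and 47351 CPM in the controls. Of these 13 genes, 9 were called lower with abd-A and 3 higher. Hml, Col4a1 and vkg had the highest means over the 5 libraries and were called lower, as were PPO1, PPO2, eater, NimC1, Pxn and lz. The 3 called higher were PPO3, He and atilla, with PPO3 the highest of the list in every abd-A library. The fat body genes, led by Lsp1beta, Lsp1gamma and Lsp2, which encode storage proteins, summed to 24.5 to 135 CPM with abd-A, against 2414 CPM in control replicate 1 and 20326 CPM in control replicate 2, and 6 of 6 genes were called lower. Muscle genes, led by Act57B, Mhc and Mlc2, summed to 428 to 621 CPM with abd-A, against 1322 and 3300 CPM in the controls, and 7 of 7 were called lower. Of all genes tested, 12.7% were called lower and 11.0% higher. The part of these tissues in the results below was not tested. In bulk hemolymph RNA, fewer cells of a type and less RNA per cell cannot be told apart. Among genes with 1 to 20 counts, the count was an even number for 54.7% to 56.4% of genes in the abd-A libraries, and for 69.3% and 60.6% in control replicates 1 and 2, so that a count of 2 may stand for a single fragment. The library kit keeps the strand, and the strand setting of the counting is not given in the sources used here. Genes annotated as antisense RNA had a median density of counts 5.42 to 9.19 times that of the coding genes they overlap, and the count table alone does not show which strand was counted. The levels below are therefore counts assigned to each gene, and whether they come from its coding strand was not tested.

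The trypsin and Jonah genes lie in 8 places. All 11 trypsin genes stand in 1 cluster of 20.7 kb on chromosome arm 2R (dm6, 11336840 to 11357537), and Jon44E lies apart on the same arm (8691448 to 8692844). The 3 Jon25B genes span 5.20 kb on 2L (4949941 to 4955144), and the 4 Jon65A genes span 15.3 kb on 3L (6039155 to 6054443). The Jon66C pair (8391540 to 8393649) and Jon74E (17548077 to 17549127) are also on 3L, while the 3 Jon99C genes (29922216 to 29926189) and the Jon99F pair (30487016 to 30489895) are on 3R. All 27 genes are annotated as protein-coding, with 810 to 1397 exonic bases, and 22 consist of a single exon. In 2 of them an exon shares bases with an opposite-strand gene, 49 bases in Jon44E and 15 bases in deltaTry. Close copies within a cluster can share reads, and the treatment of reads that match several genes is not given in the sources used here. The sequences of the members were not compared. Values of single members are therefore uncertain in every cluster, including Jon65A and Jon25B.

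At these total counts on genes, which leave out reads not assigned to a gene, many trypsin and Jonah genes were near the limit of detection. Jon65Aiv, with 395 counts in abd-A replicate 3, and Jon25Biii, with 108 counts in control replicate 1, stood well above it. The limit of detection was set at 3 counts, or 0.638 to 0.817 CPM in the abd-A libraries and 2.06 and 1.16 CPM in control replicates 1 and 2. A count was found for 20 of the 27 genes, 19 exceeded 3 counts in at least 1 library, and 2, Jon25Biii and Jon99Fii, exceeded it in all 5. The 7 genes at 0 in every library are Jon66Cii and 6 trypsins, namely gammaTry, deltaTry, zetaTry, etaTry, kappaTry and lambdaTry. Of the 27 genes, 16 had counts that summed to at least 10 and were tested, 12 Jonah genes and 4 trypsins.

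The clearest difference was at the Jon65A cluster, where Jon65Aiv and Jon65Aiii were higher in every abd-A library than in either control. Among all 27 genes, 3 were called higher with abd-A (Jon65Aiv, Jon65Aiii and Jon25Bii) and 1 was called lower (Jon25Biii), at a change of at least 2-fold and an adjusted p under 0.05. This p comes from edgeR's quasi-likelihood F-test, adjusted by Benjamini-Hochberg over all genes tested, and is called the edgeR adjusted p. The calls are 18.8% of the 16 tested genes for higher and 6.25% for lower, where 11.0% and 12.7% of all genes tested were called in the same directions. The levels of abd-A and control libraries did not overlap for 6 of the 16 genes, or 37.5%, against 56.6% of all genes tested. Fitted log2 fold changes were above 0 for 7 genes and below 0 for 9, with a median of -0.78 beside -0.17 over all genes tested. With abd-A replicate 1, 2 or 3 left out, 2, 1 and 1 of these genes were called higher and 0 lower. In the same fits, of 11403, 11396 and 11409 genes, 693, 832 and 769 were called higher and 744, 868 and 817 lower. With all libraries, 1274 and 1481 of 11624 genes were. With control replicate 1 left out, the call of Jon25Biii was lost and 4 genes were called higher, or Jon25Bi besides the 3 above, where 12.7% of all genes were. With control replicate 2 left out, 4 genes were called higher and 4 lower, where 21.0% and 19.3% of all genes were.

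**Figure D1:**
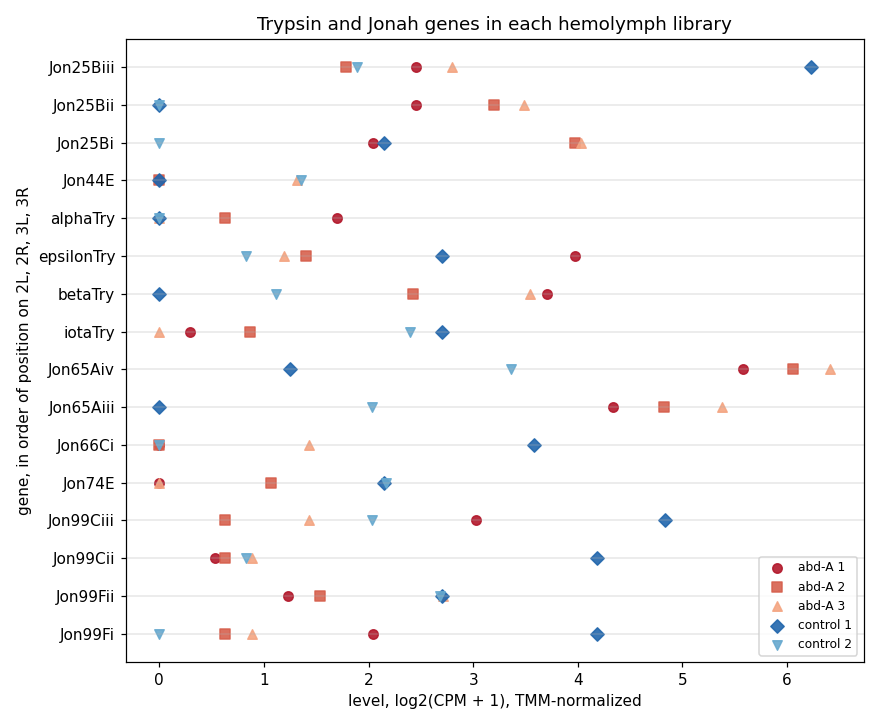
Level of each of the 16 tested trypsin and Jonah genes in each library, as log2(CPM + 1) with TMM normalization, with 1 point per library (abd-A replicates 1 to 3 in reds, control replicates 1 and 2 in blues). Jon65Aiv and Jon65Aiii lie to the right in all 3 abd-A libraries, and control replicate 1 stands alone on the right for Jon25Biii, Jon66Ci and the Jon99C and Jon99Fi genes.

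Jon65Aiv (FBgn0250815, 3L, 6039155 to 6040135, plus strand) had 210, 240 and 395 counts with abd-A, against 2 and 24 counts in the controls. These were 46.9, 65.4 and 84.1 CPM with abd-A, against 1.37 and 9.31 CPM in control replicates 1 and 2. Every abd-A library therefore stood above both controls, and control replicate 1 was the lowest of the 5. On the log2 scale the difference was 3.47 ± 0.60 (standard error), an 11.1-fold higher level (edgeR adjusted p = 0.0031). The call was kept in each of 14 alternative fits, with an adjusted p of at most 0.0241 in edgeR, DESeq2 or limma, and the value was 2.80 without control replicate 1 and 5.52 without control replicate 2.

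Jon65Aiii (FBgn0035665, 3L, 6050757 to 6051690) had 86, 100 and 191 counts with abd-A, against 0 and 8 counts in the controls. The levels were 19.2, 27.2 and 40.6 CPM in the abd-A libraries, against 0 and 3.10 CPM in the controls. Both genes were lowest in abd-A replicate 1 and highest in abd-A replicate 3, and both were lower in control replicate 1 than in control replicate 2. The log2 fold change of Jon65Aiii was 3.97 (standard error 0.88, edgeR adjusted p = 0.00996). With abd-A replicate 2 left out, it was 4.04 with an edgeR adjusted p of 0.0516, and with abd-A replicate 3 left out it was 3.69 with an edgeR adjusted p of 0.0698, so that the call was lost in both. Without control replicate 1 the value was 3.20, and without control replicate 2 the remaining control was at 0.

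The other members of this cluster, Jon65Aii and Jon65Ai, lie next to Jon65Aiii and were scarcely detected. Jon65Aii had 8 counts in abd-A replicate 1 and 0 in the other 4 libraries, and Jon65Ai had 1, 1 and 2 counts with abd-A, against 2 and 0 counts in the controls. Neither was tested. The gene yip7 encodes another serine protease of the same family, and its symbol is outside the rule. It lies 2979 bases from Jon65Aiv (3L, 6035216 to 6036175) and had 32, 73 and 69 counts with abd-A, against 1 and 7 counts in the controls. Its log2 fold change was 2.90 (standard error 0.94, edgeR adjusted p = 0.0485). This call was lost under DESeq2's size factors, under library totals, in limma-voom and without any single abd-A library. Its nearness to Jon65Aiv was noticed after its values had been seen.

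At the Jon25B cluster, 3 genes within 5.20 kb had unlike patterns. Jon25Bii (FBgn0031654, 2L, 4952243 to 4953136) had 20, 30 and 48 counts with abd-A and 0 counts in both controls. Its levels were 4.47, 8.17 and 10.2 CPM in the abd-A libraries, which is at least 4.73-fold higher when the control is set to the mean level of 3 counts per control library. All abd-A libraries lay above the limit of detection and both controls at 0. The edgeR adjusted p was 0.0260, and it lay between 0.0709 and 0.121 with any single abd-A library left out, so that the call was lost.

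Jon25Bi (FBgn0020906, 2L, 4954279 to 4955144) had 14, 54 and 72 counts with abd-A, against 5 and 0 counts in the controls. These were 3.13, 14.7 and 15.3 CPM in the abd-A libraries, against 3.43 and 0 CPM in the controls, so that abd-A replicate 1 fell just below control replicate 1. Its fitted log2 fold change of 2.84 (standard error 1.40) did not pass the test (edgeR adjusted p = 0.158). Without control replicate 1 it was called higher, with an edgeR adjusted p of 0.00801.

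Jon25Biii (FBgn0031653, 2L, 4949941 to 4950767) had 20, 9 and 28 counts with abd-A, against 108 and 7 counts in the controls. Its levels were 4.47, 2.45 and 5.96 CPM in the abd-A libraries, against 74.2 and 2.72 CPM in control replicates 1 and 2. Only control replicate 1 stood apart, and control replicate 2 lay within the range of the abd-A libraries. The log2 fold change of -3.12 (standard error 1.01) had an edgeR adjusted p of 0.0486. Leaving out control replicate 1 gave a log2 fold change of 0.65 and an edgeR adjusted p of 0.741, so that both the direction and the call of Jon25Biii rest on 1 control pool. The call was also lost with any single abd-A library left out, where the edgeR adjusted p lay between 0.103 and 0.164, and in limma-voom, where the log2 fold change was -1.09 with an adjusted p of 0.505.

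**Figure D2:**
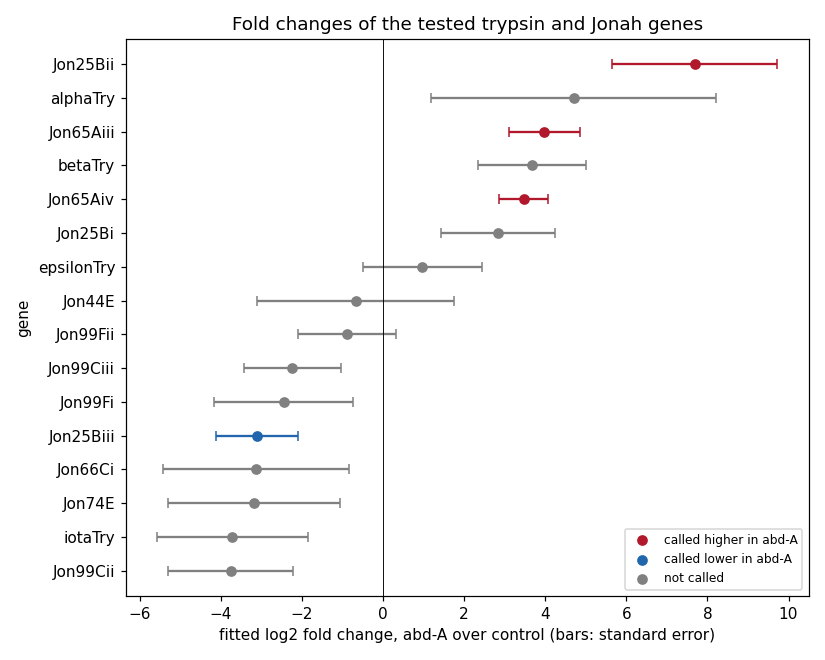
Fitted log2 fold change of abd-A over control for the 16 tested trypsin and Jonah genes, with the standard error as a bar and colour for the call of edgeR's quasi-likelihood test. The called genes run from Jon25Bii, whose fitted value is no bound because both controls are at 0, to Jon25Biii at -3.12.

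In the Jon99C and Jon99F clusters, Jon99Ciii, Jon99Cii and Jon99Fi were highest in control replicate 1, and no gene was called. Jon99Ciii (FBgn0003357, 3R, 29922216 to 29923455) had 32, 2 and 8 counts with abd-A, against 40 and 8 counts in the controls. Jon99Cii (FBgn0003356, 3R, 29923754 to 29924615) had 2, 2 and 4 counts with abd-A, against 25 and 2 counts in the controls. In both genes control replicate 2 lay within the spread of the abd-A libraries or close to it, at 3.10 CPM for Jon99Ciii and 0.776 CPM for Jon99Cii, while control replicate 1 reached 27.5 and 17.2 CPM. The log2 fold changes were -2.24 (standard error 1.20) for Jon99Ciii and -3.76 (standard error 1.55) for Jon99Cii, and the edgeR adjusted p was 0.191 for the first and 0.1002 for the second. DESeq2's Wald test called Jon99Cii lower, with an adjusted p of 0.0311, where it called 18.6% of all genes lower. Without control replicate 2 both were called lower, with an edgeR adjusted p of 0.0184 for Jon99Ciii and 0.0086 for Jon99Cii, and without control replicate 1 their values were 0.012 and -0.33. The third gene of the cluster, Jon99Ci, had 2, 4 and 0 counts with abd-A and 0 counts in both controls, and was not tested.

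Jon99Fi (FBgn0039778, 3R, 30488963 to 30489895) had 14, 2 and 4 counts with abd-A, against 25 and 0 counts in the controls, so that the abd-A libraries lay between the controls. Its neighbour Jon99Fii (FBgn0039777, 3R, 30487016 to 30487928) had 6, 7 and 26 counts with abd-A, against 8 and 14 counts in the controls. The controls agreed closely for Jon99Fii, at 5.50 and 5.43 CPM, and abd-A replicate 3 reached the same level at 5.53 CPM. The log2 fold change was -2.45 for Jon99Fi (standard error 1.71, edgeR adjusted p = 0.315) and -0.89 for Jon99Fii (standard error 1.21, edgeR adjusted p = 0.613). Without control replicate 2 the value of Jon99Fi was -3.49 and called lower (edgeR adjusted p = 0.0278), and without control replicate 1 the remaining control was at 0.

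Of the remaining Jonah genes, Jon66Ci (FBgn0035886, 3L) had 0, 0 and 8 counts with abd-A, against 16 and 0 counts in the controls, each group therefore resting on a single library. Jon74E (FBgn0023197, 3L) had 0, 4 and 0 counts with abd-A, against 5 and 9 counts in the controls. For Jon74E the controls lay at 3.43 and 3.49 CPM and the highest abd-A library at 1.09 CPM, and the groups did not overlap. Jon44E (FBgn0001285, 2R) had 0, 0 and 7 counts with abd-A, against 0 and 4 counts in the controls. The log2 fold changes were -3.14 (standard error 2.30) for Jon66Ci, -3.18 (standard error 2.12) for Jon74E and -0.68 (standard error 2.43) for Jon44E. None of these genes was called, with an edgeR adjusted p from 0.291 to 0.858. limma-voom called Jon74E lower, with an adjusted p of 0.0464, where it called 17.7% of all genes lower.

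Among the trypsins, betaTry and epsilonTry gave the most counts, and none of the 4 tested was called. betaTry (FBgn0010357, 2R) had 54, 16 and 50 counts with abd-A, against 0 and 3 counts in the controls. Every abd-A library, at 12.1, 4.36 and 10.6 CPM, lay above both controls, at 0 and 1.16 CPM. Pooled over libraries, the count rate of betaTry with abd-A was 12.6 times that in the controls (95% interval 4.20 to 61.8, exact, for counting error only). The log2 fold change was 3.67 (standard error 1.32, edgeR adjusted p = 0.0688). DESeq2's Wald test called it higher with an adjusted p of 0.0328, where it called 9.87% of all genes higher, and so did edgeR without control replicate 2 (adjusted p = 0.0137). epsilonTry (FBgn0010425, 2R) had 66, 6 and 6 counts with abd-A, against 8 and 2 counts in the controls. Here abd-A replicate 1 stood alone at 14.8 CPM, the other two abd-A libraries had 1.63 and 1.28 CPM, and control replicate 1 had 5.50 CPM. With abd-A replicate 1 left out, its log2 fold change was -1.06 in place of 0.97.

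iotaTry (FBgn0015001, 2R) showed the opposite order, with 1, 3 and 0 counts with abd-A, against 8 and 11 counts in the controls. The highest abd-A library had 0.817 CPM and the controls had 5.50 and 4.27 CPM, so that the groups did not overlap. The log2 fold change was -3.72 (standard error 1.86, edgeR adjusted p = 0.163), and limma-voom called iotaTry lower with an adjusted p of 0.0312. alphaTry (FBgn0003863, 2R) had 10, 2 and 0 counts with abd-A and 0 counts in both controls (edgeR adjusted p = 0.349). thetaTry, which was not tested, had 4, 0 and 0 counts with abd-A, against 0 and 1 count in the controls. CG30031 and CG30025, which lie within the trypsin cluster between gammaTry and deltaTry and carry no Greek letter name, were at 0 in all 5 libraries like these neighbours.

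Levels were compared between genes per kilobase of exon. In the abd-A libraries Jon65Aiv had the highest mean, at 72.4 ± 20.5 CPM per kb (SD, n = 3), and Jon65Aiii followed at 33.2 ± 12.4 CPM per kb (SD, n = 3). Their libraries did not overlap, from 51.9 to 93.0 CPM per kb for Jon65Aiv and from 22.0 to 46.5 CPM per kb for Jon65Aiii. The next genes were Jon25Bi at 12.8 ± 7.93, Jon25Bii at 8.52 ± 3.26, betaTry at 8.42 ± 3.83 and epsilonTry at 7.09 ± 9.25 CPM per kb (SD, n = 3 each), which do not differ beyond their spread. In control replicate 1 the order was different, with Jon25Biii at 89.7, Jon99Ciii at 22.2, Jon99Cii at 19.9 and Jon99Fi at 18.4 CPM per kb. Control replicate 2 had Jon65Aiv first, at 10.3 CPM per kb, followed by Jon99Fii at 5.95 and iotaTry at 5.22 CPM per kb.

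The share of each gene among all counts of the 27 genes followed the same lines. Jon65Aiv held 38.2%, 49.8% and 46.5% of these counts in abd-A replicates 1, 2 and 3, and 25.8% in control replicate 2, where it was also the leading gene. In control replicate 1 the leading gene was Jon25Biii with 42.9%. Jon65Aiii was second in every abd-A library, with 15.6% to 22.5%.

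Summed over the 27 genes, the levels of the groups overlapped. The summed level was 122.9, 131.3 and 180.7 CPM in abd-A replicates 1, 2 and 3, against 173.1 and 36.1 CPM in control replicates 1 and 2. The mean of the abd-A pools was 145.0 ± 31.2 CPM (SD, n = 3), against 104.6 ± 96.9 CPM (SD, n = 2) for the control pools, and the mean log2 level differed by 0.85 (two-sided exact permutation test, p = 0.4, where 0.1 is the smallest p that 3 against 2 libraries can give). With control replicate 2 left out, the difference was -0.28, and with control replicate 1 left out it was 1.99. Jon25Biii gave 74.2 CPM of the sum in control replicate 1. Without this gene, the sums were 118.5, 128.9 and 174.7 CPM with abd-A, against 98.9 and 33.4 CPM in the controls, which did not overlap. The difference was then 1.27 (two-sided exact permutation test, p = 0.1, the smallest possible). Since Jon25Biii was left out after its high value in control replicate 1 had been seen, no conclusion is drawn from this p. Without Jon65Aiv the sums were 76.0, 65.9 and 96.6 CPM with abd-A, against 171.7 and 26.8 CPM in the controls, and the difference was 0.21 (two-sided exact permutation test, p = 0.8). In every library these genes made up between 0.00362% and 0.0201% of all counts.

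**Figure D3:**
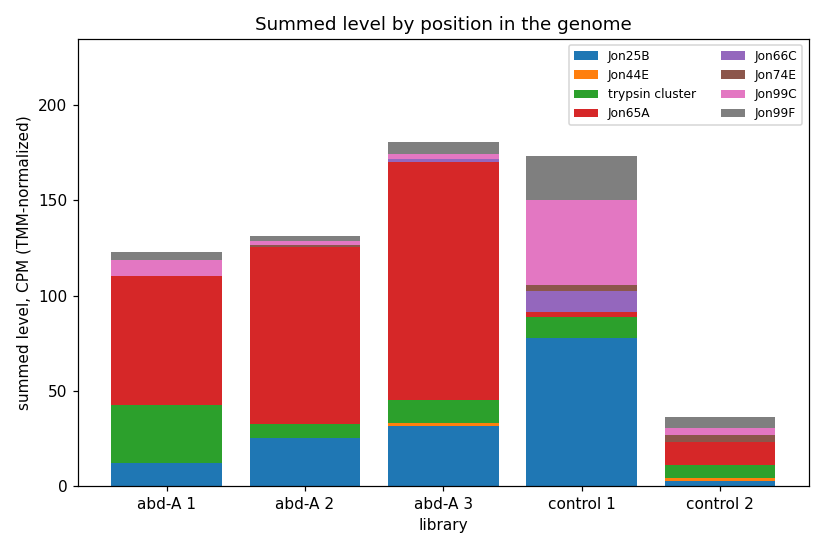
Summed level of the 27 trypsin and Jonah genes in each library in TMM-normalized CPM, stacked by place in the genome, with abd-A replicates 1 to 3 on the left and control replicates 1 and 2 on the right. The total is similar in abd-A replicate 3 (180.7 CPM) and control replicate 1 (173.1 CPM), while the Jon65A genes fill most of the first and the Jon25B and Jon99C genes most of the second.

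By place, the Jon65A cluster summed to 68.2, 92.9 and 125.1 CPM with abd-A, against 2.75 and 12.4 CPM in the controls, and the Jon25B cluster to 12.1, 25.3 and 31.5 CPM with abd-A, against 77.6 and 2.72 CPM in the controls. The Jon99C cluster had 8.05, 2.18 and 2.55 CPM with abd-A, against 44.7 and 3.88 CPM in the controls. The trypsin cluster had 30.2, 7.36 and 11.9 CPM with abd-A, against 11.0 and 6.59 CPM in the controls. Of these, the Jon65A and trypsin clusters gave little of the signal in control replicate 1, and Jon25B and Jon99C gave the most.

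The control pools differed from each other in these genes. The summed level of control replicate 1 was 4.80 times that of control replicate 2 (95% interval 3.77 to 6.15, exact, counting error only). With the counts halved, since low counts were mostly even, the interval was 3.44 to 6.96. With 1 library on each side the difference has no replicate check. Without Jon25Biii, an alternative chosen after seeing the data, the ratio was 2.97. Of 13 genes above 3 counts in at least 1 control, 9 were higher in control replicate 1, where 43.6% of all genes above the same limit were. The 95% interval of the ratio lay above 1 for 7 of the 13 genes, where it did for 26.5% of all such genes, and below 1 for 1 gene, Jon65Aiv, where it did for 31.4%. With halved counts it lay above 1 for 5 genes and below 1 for 1 gene, beside 18.6% and 20.8% of all such genes.

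Jon25Biii had the largest number of counts behind its difference, with a ratio of control replicate 1 over control replicate 2 of 27.3 (95% interval 12.8 to 69.6, exact). Jon99Cii had a ratio of 22.1 (5.52 to 192.8) and Jon99Ciii a ratio of 8.85 (4.09 to 21.9). Jon99Fi and Jon66Ci had 0 counts in control replicate 2 and 25 and 16 counts in control replicate 1, and the lower limits of their 95% intervals were 11.1 and 6.83 (4.92 and 3.02 with halved counts). For Jon65Aiv the ratio was 0.148 (0.0168 to 0.594), the other way round. Jon99Fii, Jon74E and iotaTry had ratios of 1.01, 0.984 and 1.29, with intervals that include 1. Control replicate 1 had the highest level of all 5 libraries for 6 of the 16 tested genes, or 37.5%, beside 29.7% of all genes tested.

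**Figure D4:**
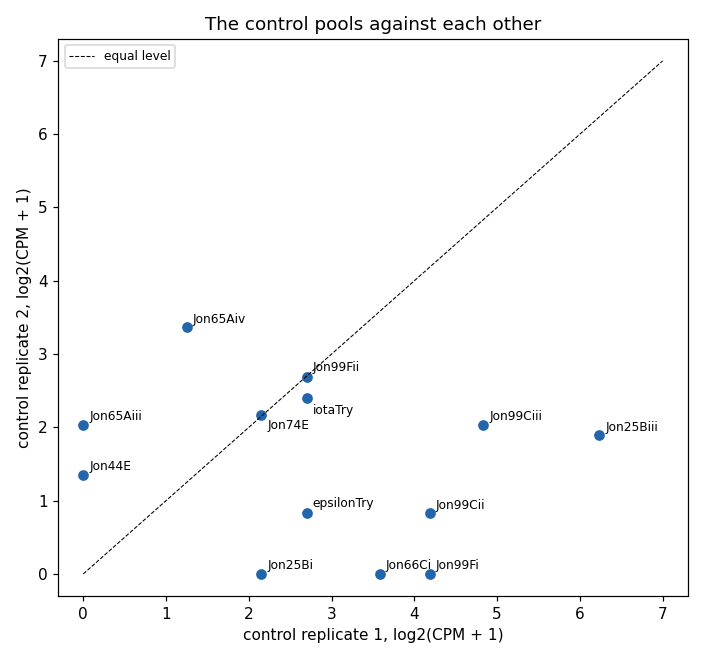
Control replicate 1 against control replicate 2 for the 13 trypsin and Jonah genes with more than 3 counts in at least 1 of them, both axes as log2(CPM + 1). The dashed line marks equal levels, with 9 genes on the side of control replicate 1. Jon65Aiv, Jon65Aiii and Jon44E lie on the side of control replicate 2, and Jon74E lies close to the line.

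Other digestive enzymes of the midgut were listed for comparison, 23 genes for starch, sugar, fat and protein digestion and lysozymes, of which 13 were tested. Called lower with abd-A were 4 (Mal-B1, Mal-B2, Mal-A5 and Amy-p), and the protease yip7 was the 1 called higher. Of all genes tested, 12.7% were called lower and 11.0% higher. Without abd-A replicate 2 the genes called lower numbered 1 of 13, where 868 of 11396 genes were called lower over all genes tested. The maltase gene Mal-B1 had 0, 1 and 0 counts with abd-A, against 86 and 72 counts in the controls, and Mal-B2 had 14, 8 and 0 counts with abd-A, against 44 and 77 counts in the controls. The amylase gene Amy-p had 3, 0 and 0 counts with abd-A, against 48 and 15 counts in the controls. The log2 fold changes of these genes were -8.54 (standard error 0.91), -4.07 (standard error 0.99) and -6.17 (standard error 1.40), with an edgeR adjusted p of at most 0.0158. The median of the 13 genes was -3.08 on the log2 scale. The summed level of all 23 genes was 22.6, 34.6 and 30.4 CPM with abd-A, against 169.7 and 120.2 CPM in the controls, and the groups did not overlap. The lysozyme genes of this list went the other way at low counts, and none was called. LysS had 4, 20 and 10 counts with abd-A, against 0 and 2 counts in the controls. LysC had 0, 0 and 23 counts with abd-A and 0 counts in both controls.

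Of 20 further genes of midgut cells, 14 were tested, with 1 called higher and 2 called lower, where 11.0% and 12.7% of all genes tested were. The median log2 fold change of the 14 genes was -0.90. The sums of this list, 1330 to 1471 CPM with abd-A and 626 and 1063 CPM in the controls, were mostly those of Myo31DF and pros. Myo31DF alone had 1367, 1291 and 1440 CPM with abd-A, against 162 and 209 CPM in the controls. The higher sum with abd-A therefore rests on this gene, and pros had 3.80, 5.45 and 2.34 CPM with abd-A, against 385 and 796 CPM in the controls. Myo31DF, which encodes a myosin of the enterocyte brush border that is also made in other tissues, was called higher with abd-A (log2 fold change 2.88), and pros, a transcription factor of enteroendocrine cells that neurons also express, was called lower (-7.27), as was Ssk (-4.36), which encodes a protein of septate junctions. cad, which encodes a homeodomain factor of the posterior midgut, was not called (-1.34). The enterocyte gene mex1 (Mex1 in the annotation) had 4, 16 and 6 counts with abd-A, against 12 and 3 counts in the controls. The midgut transcription factor gene GATAe had 7, 16 and 29 counts with abd-A, against 0 and 3 counts in the controls, and was not called. The Hox gene lab, which is needed in the copper cells of the midgut, had 0 counts in each abd-A library, against 9 and 8 counts in the controls. The edgeR adjusted p was 0.296 for GATAe, 0.620 for mex1 and 0.0648 for lab. The authors, who used DESeq2, reported lab as downregulated. DESeq2's Wald test called 5 genes of this list, where it called 9.87% of all genes higher and 18.6% lower. Salivary gland glue genes, of which 2 of 6 (Sgs8 and Sgs1) were tested, summed to at most 2.18 CPM with abd-A, against 22.7 and 7.76 CPM in the controls. Neither was called in edgeR's test, where 1 had an unadjusted p under 0.05, and 1 was called by DESeq2.

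**Figure D5:**
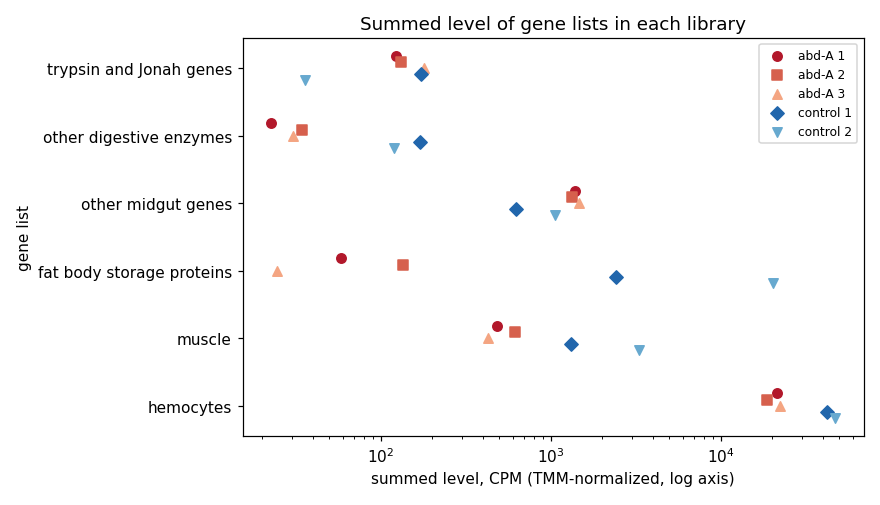
Summed level of the trypsin and Jonah genes and of 5 gene lists in each library, in TMM-normalized CPM on a log axis, with abd-A replicates 1 to 3 in reds and control replicates 1 and 2 in blues. The other digestive enzymes, fat body, muscle and hemocyte lists separate the groups with abd-A lower. The other midgut genes do so with abd-A higher, which rests on Myo31DF alone. For the trypsin and Jonah genes, control replicate 1 lies among the abd-A libraries and control replicate 2 below them.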

How the data were processed

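Hemolymph RNA of 3 abd-A and 2 control pools was analysed. The authors checked paired reads with FastQC 0.11.7, mapped them to dm6 with STAR 2.5.2 and counted them per gene with HTSeq 0.11.2, and the deposited values are raw counts without normalization. The annotation release, strand setting and counting mode are not given in the sources used here. Groups and replicate numbers came from the sample labels.

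Symbols were found for 17709 of 17807 identifiers. Gene positions were read from Ensembl's gene models, which use dm6 coordinates. Genes with a summed count of at least 10 were normalized with TMM and tested in 1 fit of all libraries with edgeR 4.0.16 (quasi-likelihood F-test, R 4.3.3), with Benjamini-Hochberg adjustment over 11624 genes. Calls needed adjusted p under 0.05 and an absolute log2 fold change of 1 or more. Standard errors are the fold change over the root of F. The fit was tested on counts simulated from the spread of these data, which held no deviating control pool and no excess of even counts. Intervals are exact at 95% and cover counting error only, since amplified reads are not independent molecules.

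Every trypsin or Jonah gene above 3 counts in a library is described with its values, and of each list the 3 genes with the highest mean CPM, those called against the majority, and others chosen after their values were seen. The genes and lists were chosen with earlier results of these data known. Of the listed names 1 matched no gene, and mex1 was matched regardless of case. Alternatives were other normalizations, count filters, DESeq2 1.42.0, limma 3.58.1 (voom), the replicate number as a block, leaving out single libraries and halved counts, the last added after seeing the data. Sequences and a planned list of other serine proteases defined by sequence were not analysed here. Python 3.11.15 with scipy 1.17.1, numpy 2.4.6 and pandas 2.3.3 gave the summaries.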

Additional observations from a re-analysis of the deposited data

How the results depend on the processing

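The fold changes of the 16 tested trypsin and Jonah genes gave 212 values under the alternatives in which they could be fitted, of which 186 kept direction and call, 10 gained a call, 12 lost it and 4 changed direction, each with 1 library left out. The ranges with each library left out were -4.10 to 0.65 for Jon25Biii, -3.68 to 0.012 for Jon99Ciii, -3.52 to 5.58 for Jon99Fi, whose upper value is a fit over a lone control at 0, and -1.06 to 2.87 for epsilonTry, and those of the summed level were -0.28 to 1.99. Of these genes, 1 to 4 were called higher and 0 to 4 lower with a library left out, and 0 to 2 had an unadjusted p under 0.05 in the fits with 0 called lower. Only Jon65Aiv was called higher without abd-A replicate 2 or 3. Without control replicate 2, Jon25Biii, Jon99Cii, Jon99Ciii and Jon99Fi were called lower. With a lone control its spread was taken to be that of the abd-A libraries. The number called lower was 2 with the DESeq2 Wald test (Jon25Biii and Jon99Cii), 2 with limma-voom (Jon74E and iotaTry) and 0 with edgeR's filterByExpr, where 12 were tested and 2 had an unadjusted p under 0.05. Of all genes, 2165 of 11624 were called lower with DESeq2, 2062 of 11624 with limma-voom and 1614 of 9719 with filterByExpr. With at least 10 counts in every library none of the 27 genes could be tested. The control ratio was 2.68 on the log2 scale without Jon65Aiv and 1.57 without Jon25Biii, beside 2.26. The other digestive enzymes called lower numbered 1 to 4 with a library left out and those called higher 0 to 1, and yip7 was the gene lost under library totals, DESeq2's size factors, limma-voom and the block (0 called, 1 with an unadjusted p under 0.05 in each). Over all genes, with a library left out, 693 to 2278 were called higher and 744 to 2094 lower, beside 1274 and 1481, and 911 lower with at least 10 counts in every library. The median of all genes tested was -0.36 with library totals and -0.32 with the size factors of DESeq2, beside -0.17, and no trypsin or Jonah gene changed direction under either.

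With the replicate number as a block, over replicates 1 and 2 only, 2 of the trypsin and Jonah genes were called higher and 0 lower (1 with an unadjusted p under 0.05), and 817 and 942 of all genes. Same-numbered libraries share only a number, with correlations of their deviations of 0.0181 and -0.0022. The list of other serine proteases was not run. Depth sets the limit of detection, and 3 counts were 2.06 CPM in the library of 1252969 counts.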
